A study of Mus musculus with 3 samples.

Results

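Islets hold several endocrine cell types, and 9 genes of transcription factors tied to islet cells other than the mature β-cell, or to the progenitors of all of them, were described at the level of one histone mark. They are Irx1 and Irx2 of alpha cells, Hhex of delta cells, Neurog3, Insm1 and Pax4 of endocrine specification, and Sox9, Gata4 and Gata6 of pancreatic progenitors. The mark was H3K4me1, monomethylation of lysine 4 of histone H3, which is carried by enhancers and by the sides of active or poised promoters. The 9 genes were chosen by name from the 22350 protein-coding genes of GENCODE M1 on chromosomes 1 to 19 and X. All H3K4me1 enriched regions were taken that overlapped one of these genes or lay within 50 kb of any of its transcription start sites (TSS), which gave 45 of the 65709 regions in the list, and each region belonged to 1 gene. Covered length below means the sequence inside regions within that window, which spans the gene and 50 kb on either side of every TSS.

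The regions came from islets cultured for 4 days with 3 cytokines, TNFα at 0.16 ng/ml, IL-1β at 0.25 ng/ml and IFNγ at 1.6 ng/ml, the exposure with which the study models early islet inflammation. DNA of 4 chromatin immunoprecipitations was pooled into 1 library. The mice were of the CD1 strain and 8 to 12 weeks old in the labels, and ICR mice of 8 to 10 weeks, at least 10 of them, in the methods, with islets of both sexes and no genetic modification named. The series has 3 samples, and neither of its RNA-seq samples nor H3K4me1 data of untreated islets were analysed here, so nothing below is a response to the cytokines.

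The list held positions only, with no read count, height or p-value, so the depth behind a region is unknown and a gene without a region is only a gene without a called region. With 1 library there is no replicate, no error and no test, and each value is given beside the same value over all protein-coding genes. Whole islets mix cell types, so a region in few cells and a weak mark in many cells cannot be told apart. All 6 β-cell markers looked up (Ins1, Ins2, Pdx1, Nkx6-1, Mafa and Slc2a2) had regions, with 5.0 kb to 41.0 kb of covered length. The alpha hormone gene Gcg had 1 region and 2.2 kb, the delta hormone gene Sst 2 regions and 2.2 kb, and the gene of pancreatic polypeptide, Ppy, 8 regions and 26.8 kb. Markers of cells outside the endocrine islet had regions as well, 3 of the 4 acinar genes found, 4 of 4 duct genes, 2 of 3 endothelial genes and 3 of 3 genes each of leukocytes and stroma, where 82.3% of all protein-coding genes had at least 1. Among the endothelial genes, Pecam1 had 43.2 kb and Cdh5 had 0 regions. The part of these cells in the results below was not tested.

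As background, pancreatic progenitors of the embryo express SOX9, GATA4 and GATA6, and a pulse of NEUROG3 in single progenitors starts the endocrine programme. NEUROG3 activates further factors, INSM1 and PAX4 among them, and the newly born cells then settle into alpha, beta, delta or pancreatic polypeptide fates under factors such as PAX4, IRX1, IRX2 and HHEX. In adult islets most cells are β-cells, so most of these 9 genes belong to minority cells or to earlier stages, and their promoters include the CpG-rich kind often found at developmental regulators.

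Every one of the 9 genes had at least 1 region, against 82.3% of all protein-coding genes. The number ran from 2 at Irx1, Sox9 and Gata6 through 4 at Hhex, 5 at Irx2, 6 at Pax4 and Neurog3 and 8 at Insm1 to 10 at Gata4. The median over the 9 genes was 5 regions, and the median over all protein-coding genes was also 5, with quartiles of 2 and 8. Covered length was 1.4 kb at Irx1, 5.2 kb at Gata6, 5.4 kb at Sox9, 6.4 kb at Hhex, 6.44 kb at Neurog3, 8.2 kb at Irx2, 19.1 kb at Pax4, 26.2 kb at Gata4 and 28 kb at Insm1. Their median was 6.44 kb, below the 8.2 kb of all protein-coding genes, whose quartiles were 1.8 kb and 17.6 kb. Windows differ in length, however, and those of all 9 genes but Gata4 were under 110 kb. The 15300 protein-coding genes with windows of up to 110 kb had a median of 6.4 kb and of 4 regions. Against all protein-coding genes, 6 of the 9 genes lay at or below the median and 3 lay above the upper quartile. In that set, which includes genes with long windows, 0 of the 9 reached the 28.8 kb that marks the upper 10%. For genes with windows of up to 110 kb that mark was 24.4 kb. Insm1 lay above it, at percentile 93.2, and Gata4 is outside this set. By the share of its window that was covered, Insm1 was at percentile 93.4 of all protein-coding genes.

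**Figure D1:**
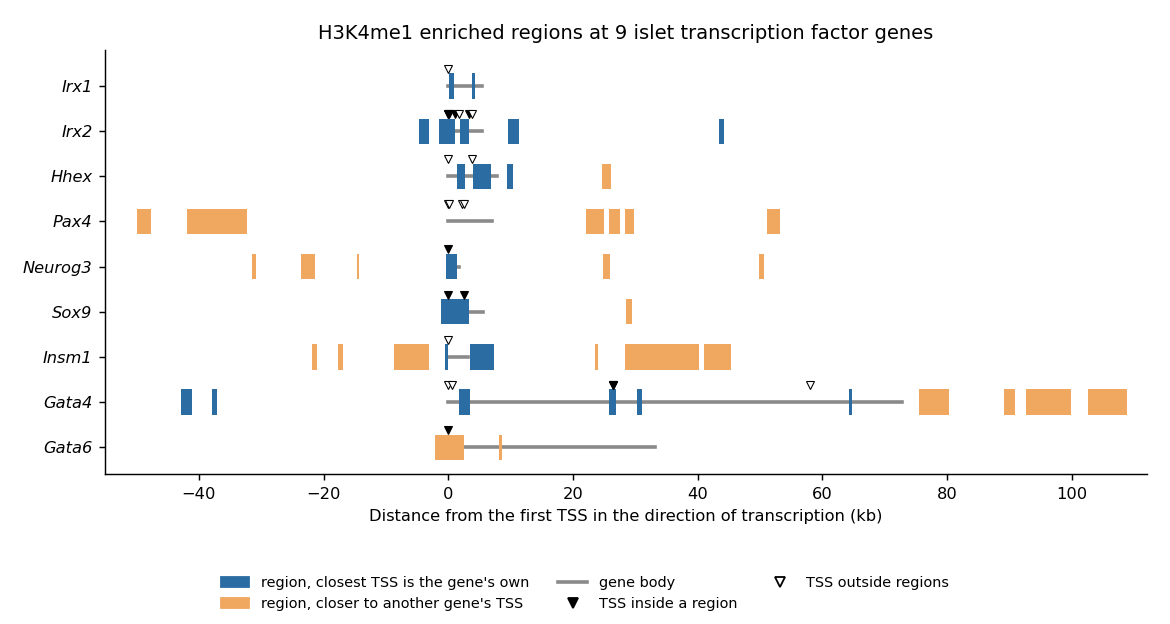
H3K4me1 enriched regions at the 9 genes in cytokine treated islets, drawn to scale by distance in kb from the first TSS, with transcription running to the right. Blue boxes are regions whose closest annotated TSS, by midpoint, is the gene's own, and orange boxes those whose midpoint is closer to another gene's TSS. Grey lines are gene bodies, and triangles are TSS inside (filled) or outside (open) a region. Blue boxes make up 20 of the 45 regions, Pax4 has no region between its nearest upstream and downstream boxes, and the widest box, 11.8 kb at Insm1, is orange.

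Irx1 and Irx2 encode homeodomain factors of the Iroquois family that are made in alpha cells within the islet and lie in the same gene cluster. Irx1 (ENSMUSG00000060969.7; mm9, chr13:72095680-72101171, minus strand) had the least covered length of the 9 genes. A region of 800 bp, chr13:72100201-72101000, began 171 bp downstream of the only TSS and lay over coding and UTR sequence, and a region of 600 bp, chr13:72096801-72097400, lay over coding sequence 3771 bp downstream of the TSS. Both were inside the gene, both were narrower than the median of all regions (1200 bp), and the next regions of the list lay 64.6 kb upstream and 163.4 kb downstream of the TSS. The gene ranked at percentile 23.0 of all protein-coding genes in covered length.

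Irx2 (ENSMUSG00000001504.8; chr13:72766245-72771644, plus strand) was covered at its start. A region of 2600 bp, chr13:72764801-72767400, ran from position -1444 to position +1155 relative to the first TSS, in bp along the gene's strand, and contained 4 of the 7 TSS, and a region of 1400 bp, chr13:72768201-72769600, contained a further 1. Between these regions, the TSS at 72768045 lay in a gap of 800 bp, flanked on both sides. The remaining regions were 1600 bp at 3045 bp upstream, 1800 bp at 9556 bp downstream and 800 bp at 43356 bp downstream of the first TSS. All 5 regions were closer to a TSS of Irx2 than to that of any other gene, and 3 of them lay outside annotated genes. Irx2 thus had 8.2 kb of covered length against 1.4 kb at Irx1, in windows of about 100 kb each. Cover at the 2 starts was not compared, since the edge beside the TSS of Irx1 is closer than the 200 bp step in which edges are placed.

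The start sites of Irx1 and Irx2 are both CpG-rich, and their sequences are shown because a region begins just after one and covers the other. Each stretch below holds the 200 bases before the first TSS and the 20 bases from it onwards, 5′ to 3′ on the strand of the gene, from the mm9 genome, with CG dinucleotides in capitals. Irx1 is chr13:72101152-72101371 on the minus strand and holds 25 CG, and Irx2 is chr13:72766045-72766264 on the plus strand and holds 16 CG. The same stretch of all protein-coding genes holds a median of 8, with quartiles of 2 and 17.
Irx1: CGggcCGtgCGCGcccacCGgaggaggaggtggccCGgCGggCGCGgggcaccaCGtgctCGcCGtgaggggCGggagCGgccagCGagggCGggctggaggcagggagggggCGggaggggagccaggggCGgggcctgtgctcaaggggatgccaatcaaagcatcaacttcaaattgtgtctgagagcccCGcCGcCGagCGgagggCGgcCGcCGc
Irx2: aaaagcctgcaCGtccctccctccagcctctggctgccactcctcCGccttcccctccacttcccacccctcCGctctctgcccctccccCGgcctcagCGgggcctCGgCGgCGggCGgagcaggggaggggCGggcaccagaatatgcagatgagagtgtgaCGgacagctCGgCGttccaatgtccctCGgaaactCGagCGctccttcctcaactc
Over the 1 kb centred on the TSS, the CpG ratio, which is observed CG over the number that base composition predicts, was 0.897 at Irx1 and 0.905 at Irx2. These values were at percentiles 91 and 92 of all protein-coding genes.

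The other Iroquois genes had covered lengths of 5.2 kb (Irx3), 4.95 kb (Irx4), 5.6 kb (Irx5) and 1.8 kb (Irx6), all below the value of Irx2 and above that of Irx1. The first TSS was covered at Irx3, Irx5 and Irx6 and had no region within 2 kb at Irx4. Pou3f4, another homeodomain factor gene, had 1 region and 1.2 kb with its first TSS outside it. Its covered length was below those of both Irx1 and Irx2.

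Hhex (ENSMUSG00000024986.5; chr19:37507377-37515218, plus strand) encodes a homeodomain factor that is needed for delta cells and for the early liver and pancreas. Its 4 regions all lay downstream of the first TSS. They were 1200 bp at chr19:37508801-37510000, 2800 bp at chr19:37511401-37514200, 1000 bp at chr19:37516801-37517800 and 1400 bp at chr19:37532001-37533400, and the first 2 lay over coding and UTR sequence. The last had a U6 gene as its closest TSS, and the other 3 were closest to Hhex. Covered length, 6.4 kb, was at percentile 43.7 of all protein-coding genes, and the nearest region upstream of the first TSS lay 55.8 kb away, just outside the window.

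Whether the start of Hhex counts as covered depended on which start was taken. The first TSS of the annotation, 37507377, was uncovered, with a region beginning 1424 bp downstream, and the second TSS, 37511229, was flanked at 1229 bp upstream and 172 bp downstream, with a gap of 1400 bp between the regions. The RefSeq start, placed in mm9 by matching its sequence, is at 37509331, and it and the first coding base at 37509360 both fell in the region of 1200 bp. The CpG ratio over 1 kb was 0.433 at the first TSS and 0.929 at the RefSeq start. The covered start was thus the CpG-rich one.

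Neurog3 (ENSMUSG00000044312.3; chr10:61595838-61597511, plus strand) encodes the basic helix-loop-helix factor that commits progenitors to endocrine fates and is largely switched off in mature islets. Its only TSS was covered by a region of 1800 bp, chr10:61595401-61597200, from position -437 to position +1362, which spans most of a gene of 1.67 kb. That region was the only one of 6 closest to Neurog3. The gene lies in an intron of 2010107G23Rik, and the other 5 regions, of 400 to 2200 bp and 14238 to 49763 bp from the TSS, had a TSS of that gene as their closest, which 1 of them covered. Covered length was 6.44 kb in all and 1.8 kb in the region at the start. The longest stretch without a region that reached into the window was 24.4 kb, a value at percentile 5.43 of all protein-coding genes.

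Insm1 (ENSMUSG00000068154.4; chr2:146047657-146050752, plus strand) encodes a zinc-finger factor of endocrine and neuroendocrine cells that remains active in mature islets. It has a single exon, and neither its TSS nor its first coding base was covered. A region of 400 bp, chr2:146047201-146047600, ended 57 bp upstream of the TSS, and the next region, of 3800 bp at chr2:146051201-146055000, began 3544 bp downstream, beyond the end of the gene. By these edges, the gene body fell into a gap of 3600 bp between regions. At genes flanked on both sides within 2 kb, of which there were 2213, the gap had a median of 1600 bp with quartiles of 1200 and 2200 bp, but that set cannot hold a gene like Insm1, whose downstream edge is more than 2 kb away.

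Insm1 had the most covered length of the 9 genes, 28 kb, at percentile 89.4, and 8 regions. A region of 5600 bp, chr2:146039001-146044600, lay 3057 bp upstream and contained a TSS of 4930529M08Rik. The widest, of 11800 bp at chr2:146076001-146087800, lay 28344 bp downstream and contained TSS of Ralgapa2 and A930019D19Rik. It was the only 1 of the 45 regions above 10 kb, a width that 2.01% of all regions pass. The regions whose closest TSS was that of Insm1 were 2 of the 8 and covered 4.2 kb. Most of the covered length at Insm1 was thus nearer to other genes.

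Pax4 (ENSMUSG00000029706.8; chr6:28392334-28399353, minus strand) encodes a paired-domain factor that favours beta and delta over alpha fate. None of its 4 TSS had a region within 2 kb, and the gene lay in a stretch of 54400 bp without a region. The nearest region upstream of the first TSS was 32248 bp away and the nearest downstream 22153 bp away. Covered length was nevertheless 19.1 kb, at percentile 77.9 of all protein-coding genes. The 6 regions all had another gene's TSS as their closest: a region of 2000 bp over the TSS of Zfp800, regions of 1400, 1800 and 2800 bp at Gcc1 and Arf5, and regions of 9600 and 2200 bp in an intron of Snd1. The region of 9600 bp, chr6:28431601-28441200, was the widest in the window, and 0 regions were closest to Pax4 itself.

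The starts of Neurog3 and Pax4 are shown because they stand for different placements of the mark, over the start and far from it. They are drawn as for the Iroquois genes, and are chr10:61595638-61595857 (plus strand, 14 CG) and chr6:28399334-28399553 (minus strand, 2 CG).
Neurog3: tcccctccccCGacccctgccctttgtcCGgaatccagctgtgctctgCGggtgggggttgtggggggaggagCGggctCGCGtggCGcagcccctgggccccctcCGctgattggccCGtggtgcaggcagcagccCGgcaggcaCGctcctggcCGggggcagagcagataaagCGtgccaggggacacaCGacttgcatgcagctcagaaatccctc
Pax4: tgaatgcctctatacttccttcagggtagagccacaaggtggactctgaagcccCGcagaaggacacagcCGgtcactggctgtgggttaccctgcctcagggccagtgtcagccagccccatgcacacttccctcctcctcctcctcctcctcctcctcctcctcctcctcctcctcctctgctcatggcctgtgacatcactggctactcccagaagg
The CpG ratio over 1 kb was 0.507 at Neurog3, 0.928 at Insm1 and 0.0517 at Pax4, which is at percentile 1.89 of all protein-coding genes.

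Except for Pax6, the paralogs of these genes had less covered length than Insm1 and Pax4. Neurog1 had 7.0 kb and Neurog2 4.6 kb, both with their TSS covered as at Neurog3, and Insm2 had 4.8 kb with its TSS covered. The 8 other Pax genes had a median of 7.7 kb. Pax6, which is needed in all islet endocrine cells, had 45.0 kb in 10 regions and 14 of 29 TSS covered, at percentile 97.1, while the other 7 Pax genes ranged from 4.2 to 16.2 kb.

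Sox9 (ENSMUSG00000000567.4; chr11:112643538-112649074, plus strand) encodes the HMG-box factor that maintains pancreatic progenitors and is kept in adult duct cells. Both of its TSS lay in a region of 4400 bp, chr11:112642401-112646800, from position -1137 to position +3262 relative to the first TSS, which also contained a TSS of the lincRNA BC006965. Regions over a covered first TSS had a median width of 2600 bp (quartiles 1600 and 4200 bp; 6952 genes), so this one was wide for its kind. The only other region, of 1000 bp, lay 28463 bp downstream and was closest to Gm11681. Beyond the window, the next regions were 454.7 kb upstream and 255.7 kb downstream of the first TSS. The longest stretch without a region was 453.6 kb, at percentile 83.5 of all protein-coding genes, and a median gene had 81.0 kb. Of the 5.4 kb covered at Sox9, 4.4 kb thus lay in the region over its start.

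Gata4 (ENSMUSG00000021944.8; chr14:63817759-63890529, minus strand) encodes a zinc-finger factor of early pancreas, liver, gut and heart that persists in acinar cells. It is the longest of the 9 genes, at 72.8 kb, and its window of 158.1 kb was the widest, so that its 10 regions and 26.2 kb, at percentile 87.4 of all genes, made up 16.5% of the window, at percentile 78.1. The first TSS, 63890529, was uncovered, with a region of 1800 bp beginning 1729 bp downstream in an intron. A region of 1200 bp, chr14:63863601-63864800, covered 3 inner TSS at 63864108, 63864097 and 63864085, the last of which starts the consensus coding (CCDS) transcript, and a region of 800 bp covered the first coding base. A region of 400 bp lay in an intron farther on, and 2 regions of 800 and 1800 bp lay 37072 and 41072 bp upstream of the first TSS. These 6 regions were closest to Gata4 and covered 6.8 kb. The other 4, of 1800 to 7200 bp, lay past the end of the gene at Fdft1 and Neil2 and were 20.2 kb wide together.

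Gata4 offers 2 kinds of start within 1 gene, which are shown for that reason in the same way. The first TSS is chr14:63890510-63890729 on the minus strand, with 7 CG, and the inner TSS at 63864108 is chr14:63864089-63864308, with 25 CG.
Gata4 first TSS: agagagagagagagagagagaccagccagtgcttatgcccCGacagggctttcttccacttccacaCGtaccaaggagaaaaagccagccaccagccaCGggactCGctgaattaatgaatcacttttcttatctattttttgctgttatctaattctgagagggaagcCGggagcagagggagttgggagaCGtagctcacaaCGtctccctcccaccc
Gata4 inner TSS: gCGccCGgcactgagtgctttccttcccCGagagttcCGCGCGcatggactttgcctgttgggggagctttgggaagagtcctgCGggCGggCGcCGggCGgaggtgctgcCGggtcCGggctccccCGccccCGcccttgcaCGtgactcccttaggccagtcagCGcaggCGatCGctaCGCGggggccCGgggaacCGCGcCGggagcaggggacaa
The CpG ratio over 1 kb was 0.175 at the first TSS, which was uncovered, and 0.660 at the inner one, which was covered.

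Gata6 (ENSMUSG00000005836.8; chr18:11052508-11085633, plus strand) encodes a related zinc-finger factor needed for pancreas formation, and it had a simple pattern. A region of 4600 bp, chr18:11050401-11055000, ran from position -2107 to position +2492 relative to its only TSS, and a region of 600 bp, chr18:11060601-11061200, lay in an intron 8093 bp downstream. The wide region also contained a TSS of the lincRNA 1010001N08Rik, and that TSS was closer than the TSS of Gata6 to the middle of both regions. Gata6 and Sox9 thus shared a wide region over the start, a neighbouring lincRNA start inside it and few regions elsewhere. Covered length, 5.2 kb, was at percentile 39.0, and the next regions lay 75.3 kb upstream and 143.9 kb downstream of the TSS.

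Among relatives of these progenitor factors, Sox8 had 4.6 kb with its first TSS covered and Sox10 had 8.8 kb with no region within 2 kb of its first TSS. Gata1, Gata2, Gata3 and Gata5 had 3.4, 6.4, 12.0 and 1.8 kb, in windows narrower than that of Gata4. Gata4 had 26.2 kb in its whole window and 6.8 kb in the regions closest to it. Of 6 other progenitor factors, Ptf1a, which specifies pancreas and later acinar cells, had the least at 2.4 kb and Hes1, a target of Notch signalling, the most at 32.2 kb. Onecut1 had 13.6 kb, Prox1 15.0 kb, Foxa1 9.0 kb and Nr5a2 7.8 kb. Sox9 and Gata6, at 5.4 and 5.2 kb, lay below 5 of these 6 genes.

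Across the 9 genes, 5 had at least 1 covered TSS, against 39.1% of all protein-coding genes. They were Irx2, Neurog3, Sox9, Gata4 and Gata6. The first TSS was covered at 4 genes (Irx2, Neurog3, Sox9 and Gata6; 31.1% of all genes) and had a region within 2 kb on one side only at 4 (Irx1, Hhex, Insm1 and Gata4; 17.7%). It had no region within 2 kb at 1 (Pax4; 41.2%), and 0 of the 9 first TSS were flanked within 2 kb on both sides, a placement that 9.9% of all genes had. Counted over all annotated TSS, 12 of 25 were covered (48.0%), and over all protein-coding genes 22027 of 70018 were (31.5%), with the caution that 7 of the 25 belong to Irx2 alone. Each of these shares rests on 9 genes and 1 library.

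Other definitions of a start moved these counts. The first CCDS start was covered at 5 of 9 genes, and at 33.8% of the 19456 genes that have one. The first coding base was covered at 7 of 9, all but Pax4 and Insm1, and at 27.7% of all protein-coding genes. Both of these starts were added after the values at the first TSS had been seen. At Irx1 the first coding base, 72100936, lay inside, and less than 200 bp from the edge of, the region of 800 bp that leaves the TSS uncovered by 171 bp, which is less than the 200 bp step in which region edges are placed. The gap of 57 bp at Insm1 is smaller still. Cover at these 2 starts is therefore not resolved by the list, nor is it at the second TSS of Hhex and the TSS of Irx2 at 72767273, 72768045 and 72769533, which also lie closer than 200 bp to a region edge.

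**Figure D2:**
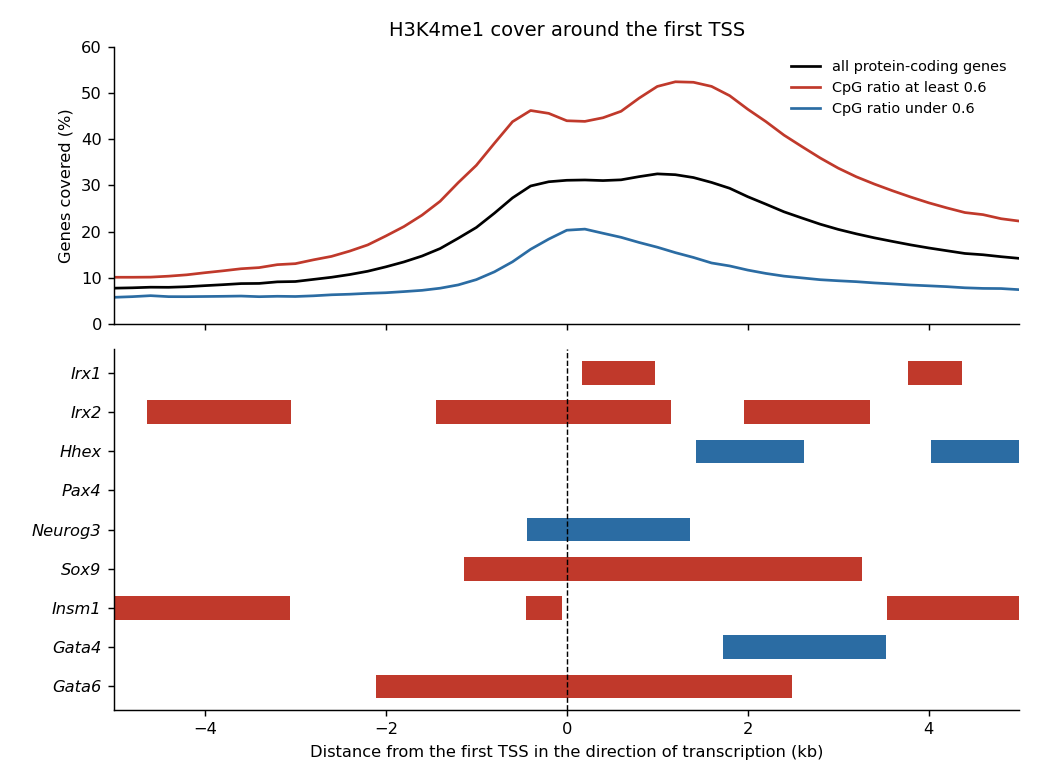
The upper panel gives the percent of protein-coding genes covered by an H3K4me1 enriched region at each distance from the first TSS in kb, for all genes (black) and for those with a CpG ratio of at least 0.6 (red) or under it (blue). The lower panel shows as boxes the regions of the 9 genes over the same distances, in the colour of the gene's own class. Of the red genes 44.0% are covered at the TSS and 52.4% at 1200 bp, of the blue genes 20.3% are covered at the TSS, and the boxes of Irx2, Neurog3, Sox9 and Gata6 cross the dashed line that marks the TSS.

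The CpG content of a start is a sequence feature that played no role in choosing the genes. All protein-coding genes were split at a CpG ratio of 0.6 over 1 kb. Of the 10195 with the higher ratio, 44.0% (95% exact binomial interval 43.0% to 45.0%, counting error only) had their first TSS covered, 19.9% flanked, 25.2% with a region on one side and 10.9% with none within 2 kb. Of the 12155 with the lower ratio, these shares were 20.3% (19.6% to 21.0%), 1.54%, 11.5% and 66.7%. The higher class held 5 of the 9 genes, Irx2, Sox9 and Gata6 with a covered first TSS and Irx1 and Insm1 with a region on one side. The lower class held Neurog3, which was covered, Hhex and Gata4, each with a region on one side, and Pax4, with none. All 5 genes of the higher class had a region at or within 2 kb of the first TSS, in a class where 10.9% had none. Pax4 alone of the lower class had none, where 66.7% of that class had none.

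**Figure D3:**
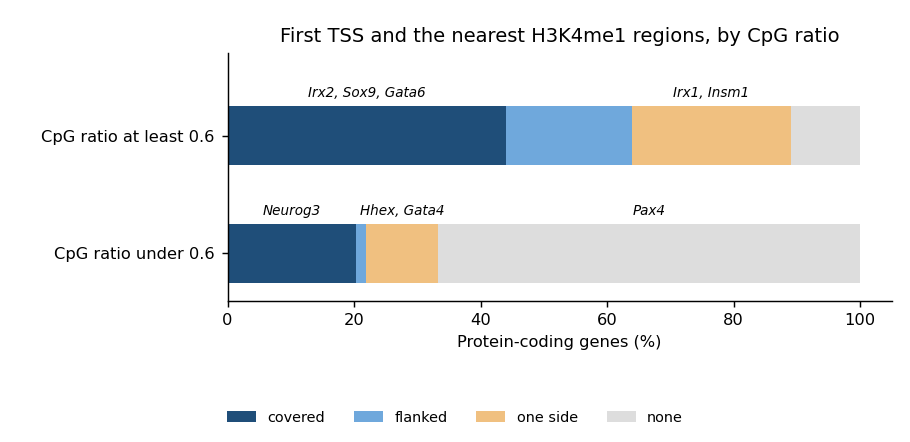
Placement of the first TSS relative to H3K4me1 enriched regions, as the percent of protein-coding genes in each CpG class, with the 9 genes written above the placement they had. A TSS is covered, flanked by regions within 2 kb on both sides, has a region on one side, or has none within 2 kb. The bar for covered genes reaches 44.0% in the upper class and 20.3% in the lower one, and 66.7% of the lower class, with Pax4, had no region within 2 kb.

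The 45 regions had a median width of 1600 bp, with quartiles of 800 and 2800 bp, and the median of all regions was 1200 bp. Regions covering a TSS of the gene numbered 6, and 8 more overlapped the gene elsewhere, 12 lay upstream and 19 downstream. The closest TSS belonged to the gene itself at 20 of the 45, namely 2 of 2 at Irx1, 5 of 5 at Irx2, 3 of 4 at Hhex, 6 of 10 at Gata4, 2 of 8 at Insm1, 1 of 2 at Sox9, 1 of 6 at Neurog3, 0 of 6 at Pax4 and 0 of 2 at Gata6. All regions at the alpha genes Irx1 and Irx2 were thus closest to these genes. By midpoint, most of the covered length at Pax4, Insm1, Gata4 and Neurog3 was in regions closer to the TSS of another gene. The regions at Gata6 counted so too. The wider one, however, contains the TSS of Gata6, and its midpoint lay only 135 bp from the lincRNA TSS. By the regions closest to them alone, the covered length was 8.2 kb at Irx2, 6.8 kb at Gata4, 5.0 kb at Hhex, 4.4 kb at Sox9, 4.2 kb at Insm1, 1.8 kb at Neurog3, 1.4 kb at Irx1 and 0 at Pax4 and Gata6. The order of the genes so changed, with Irx2 in place of Insm1 at the top. The 0 at Gata6 left out the region of 4600 bp over its own TSS, whereas Pax4 had no region within 2 kb of any TSS.

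The limit of 50 kb cut close to some regions. Just inside it were a region of 800 bp at 49763 bp from the TSS of Neurog3 and the region of 2000 bp at 48664 bp from the nearest TSS of Pax4. Just outside were a region of 4000 bp at 51848 bp from Pax4, one of 2600 bp at 53044 bp from Gata4, and regions at 55744 bp from Insm1, 55777 bp from Hhex and 55838 bp from Neurog3. At Irx1, Irx2, Sox9 and Gata6 no region lay between 50 and 64 kb.

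Factors of developing and mature islet endocrine cells, listed as Pdx1, Nkx6-1, Nkx2-2, Mafa, Neurod1, Isl1, Foxa2, Rfx6, Myt1 and Mnx1, had more covered length. The 10 genes had a median of 26.4 kb and of 8 regions, and ranged from 11 kb at Nkx6-1 to 41.0 kb at Mafa. Of the 9 genes, Insm1 lay above that median, Gata4 at 26.2 kb just below it, and 6 lay below the lowest of the 10. The first TSS was covered at 2 of the 10 endocrine factors, at 7 it had a region on one side, and at 1 none within 2 kb. The largest covered lengths among them were 38.6 kb at Pdx1, 39.1 kb at Neurod1 and 41.0 kb at Mafa. Counting only regions closest to a gene's own TSS, the median was 9.3 kb over the 10 factors and 4.2 kb over the 9 genes. No test was possible between the lists.

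Factors of other lineages were set beside them. Of the 9 found among 10 listed genes, 8 had at least 1 region (82.3% of all protein-coding genes), and the median was 5.6 kb, with 0 at the muscle gene Myf5, 4.6 kb at Myod1 and 34.2 kb at the gut gene Cdx2, which lies near Pdx1. Apart from Cdx2, the highest value in this list was 8.6 kb at Tlx3. Of the 9 genes, Irx1, Irx2, Hhex, Neurog3, Sox9 and Gata6 lay below that value, and Pax4, Gata4 and Insm1 lay above it and below Cdx2.

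**Figure D4:**
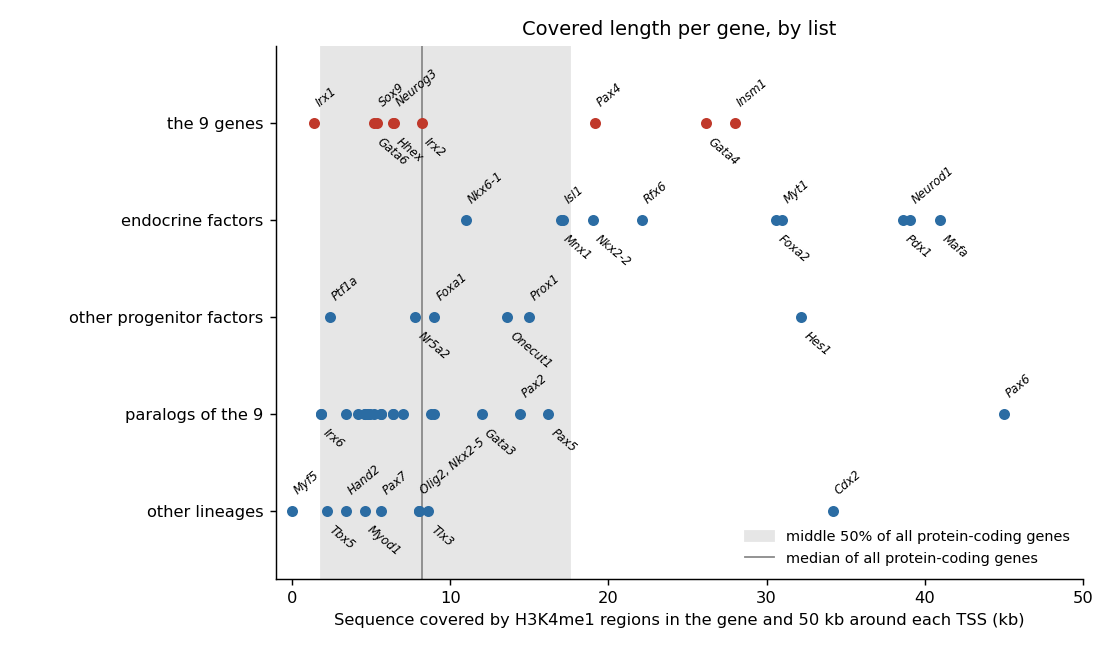
Covered length in kb for the 9 genes (red) and the genes of the other lists (blue), 1 point a gene, with the median (line, 8.2 kb) and the middle 50% (grey, 1.8 to 17.6 kb) of all protein-coding genes. Only some paralogs are named. Pax4, Gata4 and Insm1 lie to the right of the grey band, Irx1 to its left, and the 10 endocrine factors lie at 11 kb or more.

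Short motifs were searched on both strands in the promoters, from 250 bp before to 50 bp after the first TSS, and in the central 200 bp of the regions. The GATA word AGATAA was found in the promoters of Neurog3, at position -32, and of Gata4, at positions -71 and -54, and in 10.3% of all promoters. In the printed sequences it can be read in Neurog3 as agataa and at the first TSS of Gata4 on the other strand, as ttatct. Among region centres AGATAA was in 7 of 45 (15.6%), 3 of them at Insm1 and 2 at Pax4, and in 10.7% of all region centres. The E-box CANNTG was in the promoters of Irx1, Irx2, Hhex, Neurog3 and Insm1 (69.6% of all promoters) and in 33 of 45 centres (73.3%, and 67.5% of all). Its form CAGATG, which NEUROD1 and NEUROG3 bind and which is counted among CANNTG too, was in the promoters of Irx2 and Insm1 (15.1%) and in 3 of 45 centres (16.4% of all).

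The FOXA word TGTTTAC was in 0 of 9 promoters (3.11% of all) and 1 centre (4.09%), and the homeodomain word TAATTA in 0 promoters (4.83%) and 3 centres (6.56%). An RFX motif was in the promoter of Irx2 (2.99%) and in 1 centre (1.89%). Of the motifs of the pathways that the cytokines act through, the interferon response motif was in 0 promoters (3.79%) and 1 centre, at Irx2 (3.23%). An NF-kB motif was in 0 promoters (0.421%) and 0 centres (0.257%). These matches describe letters in the reference sequence and say nothing of binding.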

How the data were processed

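The authors mapped reads of 1 pooled H3K4me1 library to mm9 with bowtie2, version 2.2.1 in the submitters' processing notes, and called enriched regions with ChromHMM, whose version is not given in the sources used here. The deposited list gives each region's chromosome, start and end on a 200 bp grid. The study also removed regions of low enrichment from a merged set, and which step the deposited list comes from is not stated. It holds no other column.

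Positions were converted to count from 1 and set against GENCODE M1 and the mm9 genome. The 9 genes and all lists were chosen with earlier results of these data known. Regions were taken by their nearest edge, and covered length was clipped to the window. A region's closest TSS was that of any annotated gene within 100 kb of its midpoint. Percentiles count ties as 50% below. Motif letters were matched exactly. RefSeq starts were matched by sequence for 3 of the 9 genes. Named genes were the 9, their paralogs, pathway and marker lists, and neighbours whose TSS was closest to a region. Some items looked up are not reported here. The placement of regions, covered length, TSS classes and motif search were tested on simulated data. Alternatives varied the region width, merging, distance, TSS set, edge or midpoint, closest gene, flanking distance and CpG ratio. First CCDS start and first coding base were added after the data were seen. The tools were pysam 0.24.0, scipy 1.17.1, matplotlib 3.10.9, pandas 2.3.3 and numpy 2.4.6 under Python 3.11.15.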

Additional observations from a re-analysis of the deposited data

How the results depend on the processing

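With 1 library, no replicate could be left out and nothing was tested. No paired analysis was possible because the regions come from 1 library and from no test. The median of 5 regions per gene became 2 within 20 kb, 10 within 100 kb and 2 when only regions closest to the gene's own TSS were counted. The median covered length of 6.44 kb became 17.8 kb within 100 kb and 4.2 kb with the closest TSS. The count of flanked first TSS rose from 0 to 1 when edges within 5 kb on both sides were allowed. The share of covered first TSS in the lower CpG class fell from 20.3% to 10.7% when the classes were divided at a ratio of 0.4. The number of genes with a covered TSS ranged from 4 to 7. Of 162 values for single genes, 37 moved by more than 1.5 times, 27 of them downwards. Among them, Gata4 went from 26.2 to 6.8 kb with its first TSS alone, and Irx1 to 0 regions when regions under 1000 bp were left out. The median of the endocrine factors, 26.4 kb, was 16.2 kb within 20 kb, 40.4 kb within 100 kb and 9.3 kb with the closest TSS. Depth is unknown, so the limit on weak regions cannot be given.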
